A study of Caenorhabditis elegans with 2 samples.

Results

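The respiratory chain and ATP synthase genes of Caenorhabditis elegans were examined for binding of CEH-39, a ONECUT homeobox protein, in mixed-stage embryos. The set holds 45 of 19973 nuclear protein-coding genes. They were chosen by symbol, from the prefixes nuo-, cox-, cyc-, ucr-, sdha-, sdhb-, atp-, asb- and asg- with isp-1, gas-1, mev-1 and lpd-5. All 45 carried a RefSeq product name. Most products name a subunit or assembly factor of the chain, but those of ucr-2.1, ucr-2.2 and ucr-2.3 name only a peptidase M16 domain. The product of cyc-1 names only a cytochrome c domain, and that of cox-19 only a CHCH domain. For cox-10 the product is an enzyme name, and for cox-15 an uninformative code. Chromatin immunoprecipitation and sequencing (ChIP-seq) was done on 2 biological replicates of mixed-sex embryos of strain OP169. The strain carries the unc-119 allele ed3 and the transgene wgIs169, which expresses CEH-39 fused to eGFP, and both replicates share this background. There was 1 group, so genes were set against the rest of the genome. The whole embryo was sampled, so the cell types behind a peak are unknown.

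Respiration passes electrons from NADH through complex I, or from succinate through complex II, to ubiquinone, complex III, cytochrome c and complex IV, which reduces oxygen. Complexes I, III and IV move protons out of the mitochondrial matrix, and complex V, the ATP synthase, uses the return flow to make ATP. Most subunits are encoded in the nucleus and have to be made in step with a few that mitochondrial DNA encodes. In C. elegans, partial loss of several of these proteins is known to slow development and to lengthen or shorten life.

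A gene is called bound here if a peak that the authors kept for its reproducibility between replicates (the irreproducible discovery rate, or IDR, set) had its summit from 1000 bp upstream to 200 bp downstream of a start of a protein-coding transcript. The signal value of a peak is the one the authors' caller gave it; its scale is unknown, and it is used only to rank and describe peaks within a list. Sequencing depth is unknown, since read counts were not used. Intervals are 95% exact (Clopper-Pearson) intervals over genes or peaks and cover counting error only. No test was made of the set as a whole, because it was chosen with results of these data known. Coordinates are in ce11, counted from 1.

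The sequences under 4 of the member peaks are printed because they hold the strongest summits of the set and its only matches to the ONECUT core ATCGAT. Each is the 101 bases centred on the IDR summit, written in the direction of the gene (the plus strand for all 4), from the WBcel235 assembly that ce11 names. Capitals mark the letters ATCGAT. The windows are chrIII:12905153-12905253 for cox-5A, chrIII:2785974-2786074 for cox-6B, chrX:6840968-6841068 for asg-2 and chrIV:126286-126386 for cox-6C.
cox-5A: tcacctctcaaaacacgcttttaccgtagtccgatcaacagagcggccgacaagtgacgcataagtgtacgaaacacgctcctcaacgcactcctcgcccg
cox-6B: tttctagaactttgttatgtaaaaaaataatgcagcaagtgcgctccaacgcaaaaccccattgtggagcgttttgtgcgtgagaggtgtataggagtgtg
asg-2: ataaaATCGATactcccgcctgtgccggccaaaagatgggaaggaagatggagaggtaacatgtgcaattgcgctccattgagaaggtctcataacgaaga
cox-6C: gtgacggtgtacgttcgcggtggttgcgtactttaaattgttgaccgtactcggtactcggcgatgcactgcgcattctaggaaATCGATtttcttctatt
Neither of the 2 strongest windows, those of cox-5A and cox-6B, held any of the 4 hexamers searched.

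CEH-39 peaks stood at 16 of the 45 genes, or 35.6% (interval 21.9 to 51.2%), whereas 6.46% of all nuclear protein-coding genes were bound. The share was 5.50 times that of all genes. Within the set, the bound genes were mostly subunits of complexes IV and V. The counts by complex cover only genes whose symbols met the rule. Among the genes outside it were 25 complex I genes with other names (5 bound), sdhd-1 of complex II (not bound) and hpo-18 of complex V (bound). The complex IV copper chaperone gene sco-1 (bound) and the assembly genes sft-1, bcs-1, nuaf-1 and nuaf-3 (not bound) also lay outside it. This account is not complete, since subunit genes with still other names were not searched for. Complex IV subunits were bound in 5 of 7 cases (71.4%, interval 29.04 to 96.3%) and complex V subunits in 6 of 9 (66.7%, 29.9 to 92.5%). Complex III had 3 of 7 bound (42.9%, 9.90 to 81.6%), complex II 1 of 4 (25%, 0.631 to 80.6%) and complex I 1 of 8 (12.5%, 0.316 to 52.7%). None of the 8 complex IV assembly factors of the set was bound, which allows a share of up to 36.9%. Neither of the 2 cytochrome c genes was bound, which allows up to 84.2%. With so few genes per complex these intervals overlap, and differences between complexes were not tested. Each bound gene had a peak of its own within the set, 16 peaks in all.

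**Figure D1:**
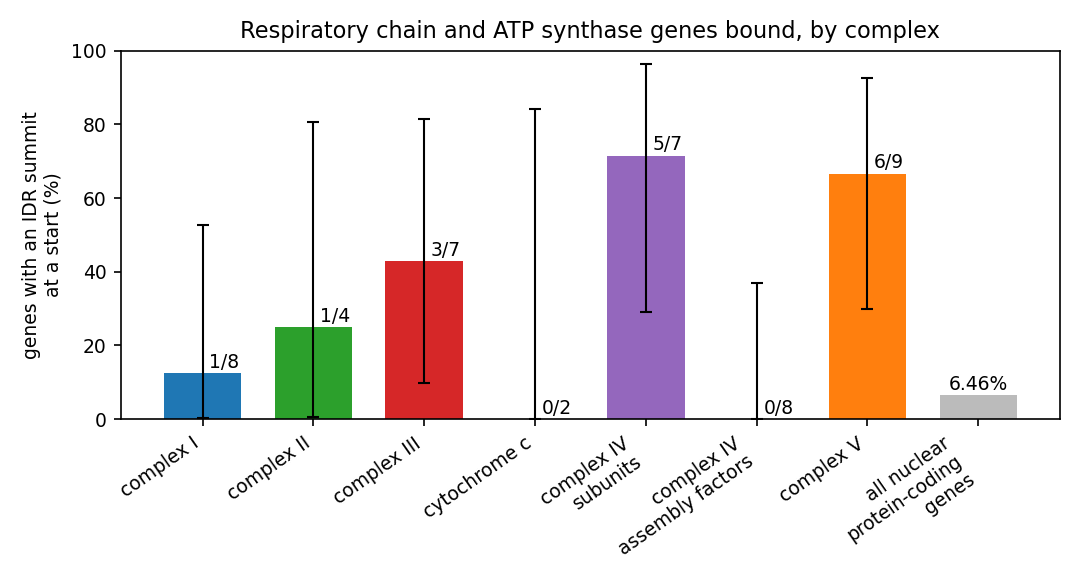
Share of the set's genes bound in each complex, in percent (bars), with exact 95% intervals (lines) and the counts beside them. The grey bar is the share of all nuclear protein-coding genes. Complex IV subunits (5 of 7) and complex V (6 of 9) have the highest bars, and the intervals of all complexes overlap.

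The bound peaks were of middling strength with a few exceptions. Their signal values ran from 77.2 to 344, with a median of 102.8, against a median of 114 for the peaks of all 1291 bound genes and a lowest value of 76.5 in the IDR set. In the stronger part of the set, the 622 strongest of 1244 IDR peaks, lay the peaks of 6 of the 16 genes (37.5%), against 54.5% of all bound genes. Of the 16 peaks 14 were 350 bp wide. The median distance upstream of the start was 242.5 bp for the members' summits and 243 bp for those of all bound genes.

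**Figure D2:**
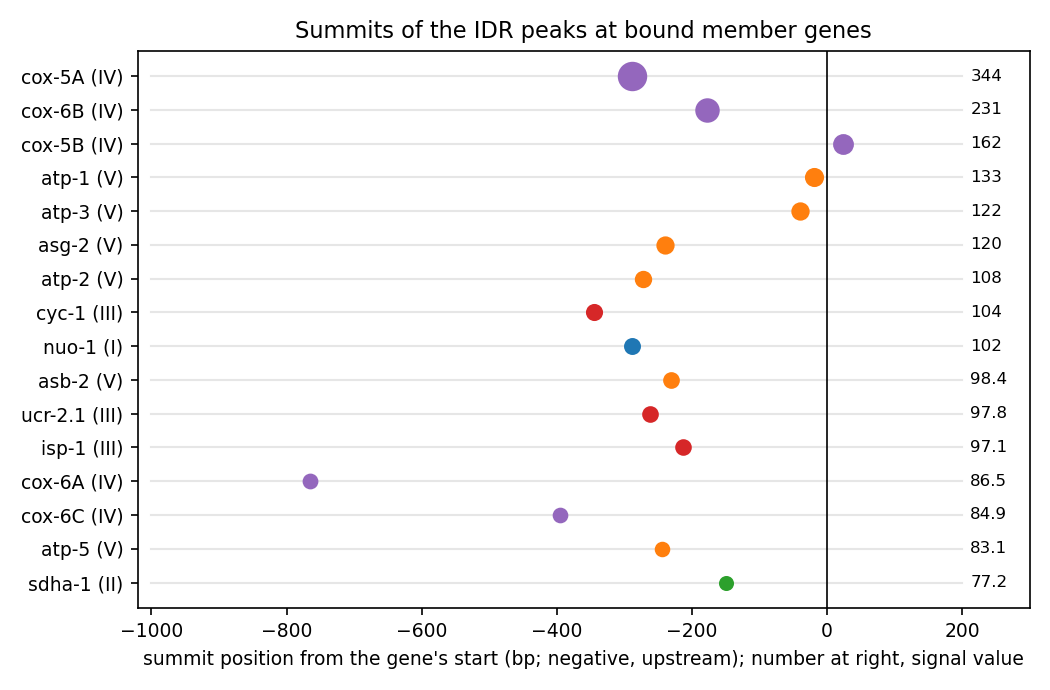
Position of each bound gene's IDR summit from the gene's start, in bp along the gene (x axis), with genes ordered by signal value, which is printed at the right and sets the point's area. Most summits lie 149 to 395 bp upstream; cox-6A is farther away at 766 bp, and cox-5B is 24 bp downstream.

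Complex I was represented by nuo-1, which encodes the flavoprotein that takes electrons from NADH. The nuo-1 peak (chromosome II, 11097374 to 11097723) had a signal value of 101.8 and its summit 288 bp upstream. It ranked 606 in replicate 1 and 4893 in replicate 2. The summit also lay in the window of the divergent ribosomal protein gene rpl-36.A, but the nuo-1 start was the nearest. The other 7 complex I genes of the set were not bound. Of these, nuo-2, whose product is named as an iron-sulfur protein, came nearest, at rank 2517 of 30000. That is its rank in the relaxed list called on both replicates pooled, which includes background. In replicate 1 its peak ranked 2217, and in replicate 2 it ranked 18682. The gas-1 gene, whose mutants are known for hypersensitivity to volatile anaesthetics, had a peak at rank 1360 in replicate 2 but none in its window in replicate 1. No list held a peak in the window of nuo-4.

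Complex II links the citric acid cycle to the chain. Its bound member, sdha-1, encodes the flavoprotein subunit of succinate dehydrogenase and had the weakest of the 16 peaks (X, 8545995 to 8546344, signal 77.2), just above the lowest value of the IDR set. That peak ranked 1117 in replicate 1 and 23020 of 27014 in replicate 2. Below the limit of the IDR set stood mev-1, a membrane subunit whose mutation is known to cause sensitivity to oxygen, with pooled rank 1716 and signal 63.8. It ranked 1417 in replicate 1 and 16186 in replicate 2. The iron-sulfur subunit gene sdhb-1 had pooled rank 3708.

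Complex III was bound at cyc-1, isp-1 and ucr-2.1. The cyc-1 gene encodes cytochrome c1, and its summit (peak on chromosome I, 8024592 to 8024941) lay 345 bp upstream with a signal value of 103.8. Its peak ranked 781 in replicate 1 and 2073 in replicate 2. The isp-1 gene encodes the Rieske iron-sulfur protein, and a mutation in it is known to extend lifespan. Its peak (chromosome IV, 8136093 to 8136442) had a signal value of 97.1 and ranked 706 in replicate 1 and 2807 in replicate 2. The summit lay 213 bp upstream of isp-1 but 121 bp from the start of its divergent neighbour islo-1. The peak of ucr-2.1, a core subunit gene (X, 12017992 to 12018341, signal 97.8), ranked 828 in replicate 1 and 967 in replicate 2. This was the only complex III peak among the 1244 strongest of both replicates. Its summit was 262 bp upstream of ucr-2.1 and 124 bp from the start of nmat-1. The core subunit genes ucr-1, at pooled rank 1855, and ucr-2.2, at 1859, were not bound. In replicate 1 they ranked 1818 (ucr-1) and 2451 (ucr-2.2), and in replicate 2 they ranked 8173 (ucr-1) and 5738 (ucr-2.2).

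Complex IV subunits had the strongest peaks of the set. The cox-5A peak (chromosome III, 12905110 to 12905285) had a signal value of 344 and stood at place 23 of 1244 in the IDR set. It ranked 54 in replicate 1 (signal 227) and 6 in replicate 2 (signal 116). Its summit lay 288 bp upstream of cox-5A, and no other gene had it in its window. The cox-6B peak (chromosome III, 2785968 to 2786140, signal 231) ranked 135 in replicate 1 and 82 in replicate 2. Its summit, 178 bp upstream of cox-6B, was also in the windows of Y71H2AM.20, whose start was the nearest at 76 bp, and of nduc-2, which encodes a complex I subunit. The annotation gives cox-6B a second, distant start; the peak lies at the near one.

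The cox-5B gene, whose loss is widely used to trigger the mitochondrial unfolded protein response, had a peak (chromosome I, 9788574 to 9788923, signal 162) whose summit was just inside the gene, at 24 bp. It ranked 187 in replicate 1. In replicate 2 the strongest peak in the window ranked 1520 and lay 608 bp upstream, and the peak overlapping the IDR peak ranked 3189. The peaks of cox-6A (chromosome III, 5080783 to 5081132, signal 86.5) and cox-6C (chromosome IV, 126161 to 126510, signal 84.9) were among the weaker ones, but both ranked higher in replicate 2. That of cox-6A ranked 1305 in replicate 1 and 799 in replicate 2. That of cox-6C ranked 1414 in replicate 1 and 542 in replicate 2. The summit of cox-6A lay 766 bp upstream, the farthest of the set, and that of cox-6C, 395 bp upstream, was also in the window of grld-1. The 2 unbound subunit genes were cox-4, just outside the set at pooled rank 1396 (signal 71.9), and cox-7C at 3059. The cox-4 peak ranked 1272 in replicate 1 and 8924 in replicate 2.

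Complex V was bound at the genes of both catalytic-head subunits in the set and of several stalk and membrane subunits. The atp-1 gene encodes subunit alpha, and its summit (peak on chromosome I, 12652083 to 12652432) lay 19 bp upstream of the start with a signal value of 133. It ranked 441 in replicate 1 and 565 in replicate 2. The atp-2 gene encodes the catalytic subunit beta. Its peak (chromosome III, 5227970 to 5228319, signal 107.5) ranked 780 in replicate 1 and 1693 in replicate 2, with the summit 272 bp upstream of atp-2 and 261 bp from the start of C34E10.10. The atp-3 gene encodes the oligomycin sensitivity conferral protein of the stalk, and its peak (chromosome I, 5429773 to 5430122, signal 122, summit 40 bp upstream) ranked 747 in replicate 1 and 269 in replicate 2. The peaks of atp-1 and atp-3 were the only complex V peaks among the 1244 strongest in both replicates.

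The other bound complex V genes, like atp-1 and atp-2, ranked lower in replicate 2 than in replicate 1. The atp-5 peak (subunit d, chromosome V, 11123937 to 11124286, signal 83.1) ranked 1013 in replicate 1 and 5588 in replicate 2, and its summit was nearer to the start of lmtr-3 (74 bp) than to that of atp-5 (245 bp). The asb-2 peak (subunit b, X, 4469360 to 4469709, signal 98.4) ranked 794 in replicate 1 and 6137 in replicate 2. The asg-2 peak (subunit g, X, 6840843 to 6841192, signal 120) ranked 417 in replicate 1 and 3132 in replicate 2. Both had their summits upstream, at 231 bp for asb-2 and 240 bp for asg-2. The unbound complex V genes were asb-1, asg-1 and atp-4, the gene of coupling factor 6.

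For 4 subunits with more than 1 gene in the set, the bound copy in the IDR set was on X, a pattern that held for 1 of the 4 in the strongest peaks of replicate 2. The asb-2, asg-2, sdha-1 and ucr-2.1 genes are on X and were bound, whereas asb-1, asg-1, sdha-2 and ucr-2.3, on autosomes, were not, and neither was ucr-2.2, which is also on X. As background, asb-1 is known as a germline form of subunit b. By the rule for close same-strand runs given below, the unbound asb-1, sdha-2 and ucr-2.2 lie downstream in a run, and so does the bound sdha-1. In replicate 1 no peak lay in the windows of asb-1, asg-1, sdha-2 or ucr-2.3. In replicate 2 the order differed for subunit g. The asg-1 peak ranked 2418 there, above asg-2 at 3132. The ucr-2.3 peak ranked 2406, below ucr-2.1 at 967. The asb-1 peak ranked 24428, below asb-2 at 6137. Over the whole set 4 of 6 genes on X were bound (66.7%, interval 22.3 to 95.7%), where 5.6% of all X genes were bound. Of the autosomal members 12 of 39 were bound (30.8%, 17.02 to 47.6%), where 6.6% of all autosomal genes were. The interval for the X members spans the autosomal share, and the difference was not tested. When only replicate 2's 1244 strongest peaks were used, 1 of the 6 genes on X was bound, ucr-2.1 (16.7%, where 4.72% of all X genes were), and 6 of the 39 on autosomes (15.4%, where 5.72% were); asb-2, asg-2 and sdha-1 were not bound there. With those of replicate 1 alone the counts were 4 of 6 on X (where 5.68% of all X genes were bound) and 11 of 39 on autosomes (where 6.55% were). In the 622 strongest IDR peaks they were 1 of 6 on X, asg-2 (where 3% of all X genes were bound), and 5 of 39 on autosomes (where 3.61% were).

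The bound genes ranked higher in replicate 1 than in replicate 2 in 11 of 16 cases. All 16 bound genes had a peak in their window in each replicate's relaxed list. In replicate 1 the median rank of these peaks was 763.5, and 568 for all bound genes with a peak there. In replicate 2 the median was 1606.5, against 777 for all bound genes. Taking the 1244 strongest peaks of a replicate as its bound set, 14 of the 16 genes (87.5%) were also bound in replicate 1, against 90.9% of all bound genes. In replicate 2 the count was 7 of 16 (43.8%), against 59.95% of all bound genes. The 5 genes within both sets (31.3%, against 53% of all bound genes) were cox-5A, cox-6B, atp-1, atp-3 and ucr-2.1. At a deposited q-value under 0.05 all 16 peaks passed in replicate 1, where 3958 peaks did so, and 5 passed in replicate 2, where 790 did. The lists differ in how many peaks reach this limit, so the counts do not compare binding between replicates.

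**Figure D3:**
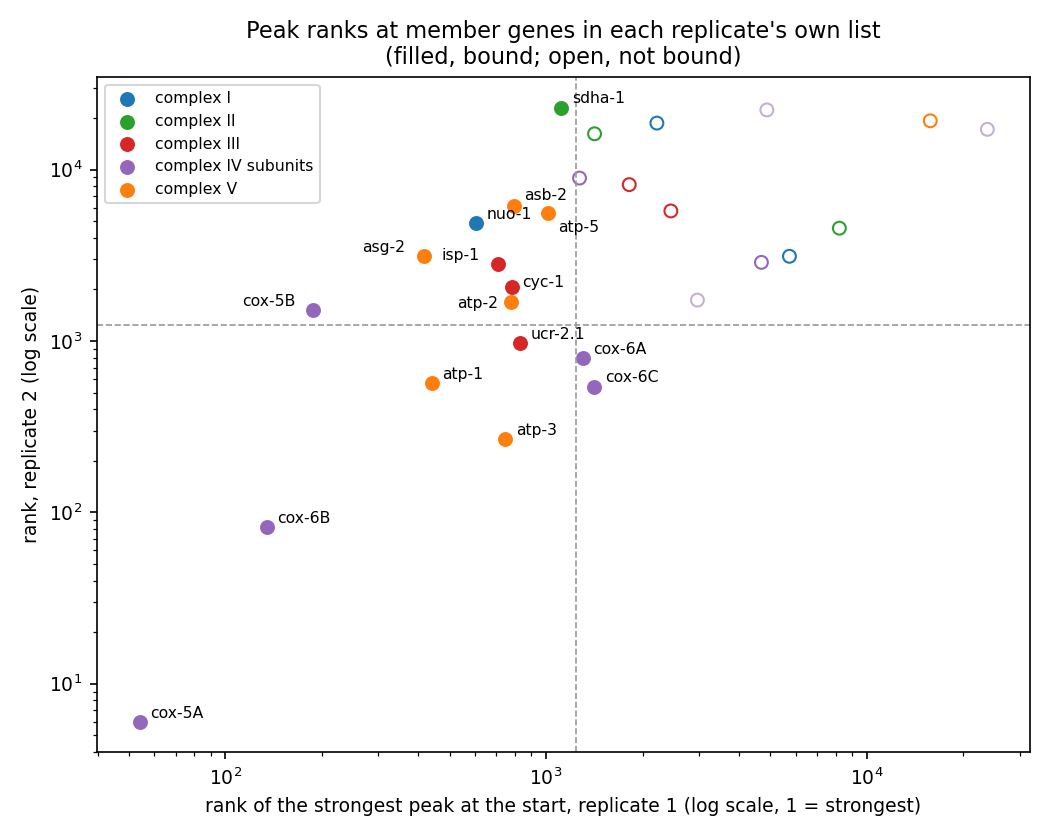
Rank by signal value of the strongest peak in each gene's window in replicate 1 (x axis) and replicate 2 (y axis), both on log scales, for the 16 bound genes (filled, named) and the 12 unbound genes with a peak in both lists (open), coloured by complex. Dashed lines mark rank 1244. cox-5A and cox-6B lie at the lower left, and 9 bound genes lie above the horizontal line.

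The count of bound genes moved with the peak set used. When only the 1244 strongest replicate 2 peaks were used, 7 of 45 genes were bound (15.6%, interval 6.49 to 29.5%), where 5.58% of all genes were. When only those of replicate 1 were used, 15 were bound (33.3%), where 6.43% of all genes were; cox-6A and cox-6C dropped out and the assembly factor cox-14 came in. In the 622 strongest IDR peaks 6 genes were bound (13.3%), where 3.52% of all genes were. In the 2488 strongest pooled peaks 22 were bound (48.9%), where 11.7% of all genes were. The 6 genes added there were cox-4, cox-10, cox-14, mev-1, ucr-1 and ucr-2.2. Windows of 500 bp upstream gave 15 genes (33.3%), where 5.34% of all genes were bound, and windows of 2000 bp gave 19 (42.2%), where 8.3% were. When a peak counted for the closest gene alone, 11 were bound (24.4%), where 4.52% of all genes were. The ratio to all genes was lowest with replicate 2 alone, at 2.79, and highest with windows of 500 bp, at 6.25.

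The unbound members were often the downstream genes of close same-strand runs. Many C. elegans genes are transcribed as operons, in which a gene is read from the promoter of the gene ahead of it. Operon annotation was not used here; a gene was counted as downstream in a run if the nearest gene upstream was on the same strand and ended within 500 bp, a rule set after the data were seen. By this rule 14 of 29 unbound members were downstream in a run (48.3%), against 2 of 16 bound members (12.5%). For all genes the shares were 18.05% of unbound and 12.9% of bound genes. Bound or not, 16 of the 45 members (35.6%) were downstream in a run, against 17.7% of all genes. Members not downstream in a run were bound in 14 of 29 cases (48.3%), where 6.85% of all such genes were bound. Members downstream in a run were bound in 2 of 16 cases (12.5%), where 4.69% of all such genes were.

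For 7 of the unbound members the first gene of the run was bound. The cytochrome c gene cyc-2.1 lies 110 bp behind the ribosomal protein gene rpl-20, whose peak is the eighth strongest of the IDR set (signal 449) and ranked 14 in replicate 1 and 4 in replicate 2. Its summit is 1065 bp upstream of cyc-2.1, just outside the window, and the start nearest to it is that of Y17G9B.5, at 163 bp. The complex III gene ucr-11 lies 101 bp behind dad-1, whose peak (signal 85.3) ranked 643 in replicate 1 and had no counterpart in the window of dad-1 in replicate 2; the start nearest to it is that of tre-1, at 85 bp. The complex I gene nuo-4 follows rnp-7 in a run that starts with syf-2 (signal 187), whose peak ranked 147 in replicate 1 and 491 in replicate 2. The other 4 were assembly factors. The copper chaperone gene cox-17 lies 102 bp behind ubc-20 (signal 99.2), whose peak ranked 1167 in replicate 1 and 436 in replicate 2. The gene cox-18 lies 110 bp behind Y55F3AR.2 (signal 128), whose peak ranked 527 in replicate 1 and 474 in replicate 2. The run of cox-11 starts with lin-54 (signal 251), whose peak ranked 93 in replicate 1 and 87 in replicate 2 and is nearest to the start of rpl-12, at 28 bp. The run of cox-19 starts with hpo-35 (signal 89.5), whose peak ranked 954 in replicate 1 and 8682 in replicate 2. Counting a gene as bound at its own start or at the first gene of its run gave 23 of 45 members (51.1%), where 8.77% of all genes were so bound. With a gap of at most 200 bp it gave 21 (46.7%), where 8.08% were. With the 1244 strongest peaks of replicate 2 alone it gave 13 (28.9%), where 7.47% were, and with those of replicate 1 alone 23 (51.1%), where 8.63% were. Whether these genes are transcribed from those starts was not tested.

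**Figure D4:**
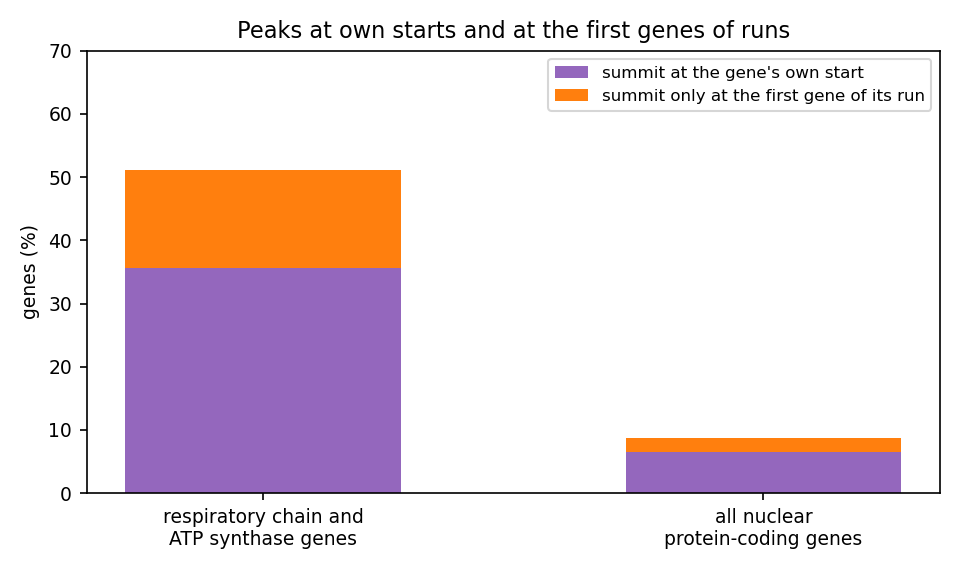
Percent of genes with an IDR summit at their own start (purple) and, stacked on it, of genes with a summit only at the first gene of their close same-strand run (orange), for the 45 members (left) and all 19973 nuclear protein-coding genes (right). The total is 51.1% for the members and 8.77% for all genes.

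Several of the peaks could belong to more than 1 gene. Of the 16 peaks 10 also lay in the window of another protein-coding gene (62.5%), against 57.01% of the strongest peaks of all bound genes. A gene on the opposite strand, called divergent here, was the nearest upstream neighbour of 12 of the 16 bound members and of 14 of the 29 unbound ones (48.3%). It was that of 68.7% of all bound and 44.7% of all unbound genes. Genes that overlap were counted in the same way, for members and for all genes. Among the 14 is cyc-2.2, which overlaps cubn-1 and so has no truly divergent neighbour there. Counted at any distance, the share in bound members was 75%, near that of all bound genes. It includes cox-5A, whose divergent neighbour unc-71 lies 13752 bp away, and cox-6B, for which it was read at the distant start. Within 1000 bp, a divergent neighbour stood upstream of 10 of the 16 bound members (62.5%), against 49.7% of all bound genes. Read again at its distant start, cox-6B is among these 10. For unbound genes the shares within 1000 bp were 48.3% of members, with cyc-2.2 again counted, and 19.3% of all genes. These differences were not tested. The member was the gene with the nearest start for 11 peaks. For the other 5, those of isp-1, ucr-2.1, cox-6B, atp-2 and atp-5, the nearest start belonged to another gene, and which gene such a peak serves was not tested.

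Of the unbound members 22 had a peak in the pooled relaxed list. Counting bound genes too, 38 of 45 members (84.4%) had one in their window, against 43.7% of all genes. The median rank of these peaks was 1785.5 for members and 7315 for all genes with one. In 5 cases a member had no peak in its window in any of the 3 relaxed lists, namely nuo-4, sdha-2, cyc-2.2, cox-15 and cox-17. The members just outside the IDR set by pooled signal were cox-4 (71.9), cox-14 (68.9), mev-1 (63.8), ucr-1 (60.8) and ucr-2.2 (60.7), and those just inside were sdha-1 (77.2) and atp-5 (83.1). The cox-14 peak ranked 1097 in replicate 1 and had no counterpart in its window in replicate 2.

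The remaining unbound members ranked lower. Among complex I genes the pooled ranks were 3139 for gas-1, 4455 for nuo-6, 5322 for lpd-5, 6707 for nuo-3 and 18229 for nuo-5, the last of which had no peak in either replicate. Among assembly factors cox-10, which encodes the heme O synthase, had pooled rank 2304 with ranks of 2966 in replicate 1 and 1732 in replicate 2, and cox-11 and cox-19 had pooled ranks of 4801 and 16396. The cox-16 and cox-18 genes had no pooled peak and a peak in 1 replicate each, at rank 2976 in replicate 2 for cox-16 and 25108 in replicate 1 for cox-18. In complex V the pooled ranks were 5731 for asg-1, 9351 for atp-4 and 18192 for asb-1, and in complex III they were 20187 for ucr-11 and 20543 for ucr-2.3. By complex, the median pooled rank of members with a peak was 778 in complex V, 994 for complex IV subunits, 1716 in complex II, 1855 in complex III, 3552.5 for assembly factors and 4455 in complex I; the single cytochrome c peak, at cyc-2.1, ranked 3689.

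The ONECUT core ATCGAT and its relative ATTGAT were counted, together with ACGCAG and GAGAGA, which were already known to be frequent at these peaks, on both strands in the 101 bases around each summit. ATCGAT stood in 2 of 16 member windows (12.5%, interval 1.55 to 38.3%), those of asg-2 and cox-6C printed above, against 17.4% of all IDR summit windows. ATTGAT stood in none, which allows up to 20.6%, against 5.87%. ACGCAG stood in 3 (18.8%, 4.05 to 45.6%), at atp-3, cyc-1 and asb-2, against 19.5%. GAGAGA stood in 1 (6.25%, 0.158 to 30.2%), at asb-2, against 25.3%. None of these hexamers overlaps another in the member windows. Among windows of the same length centred 243 bp upstream of all protein-coding starts, the shares were 3.84% for ATCGAT, 10.9% for ATTGAT, 2.88% for ACGCAG and 7.17% for GAGAGA. All 4 intervals at member peaks include the share at all IDR peaks. In 11 of the 16 windows none of the 4 was found. The median share of G and C was 48.5% in the member windows and 47.5% in all IDR windows.

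Some genes of the same and neighbouring pathways outside the set were bound too. Of 27 other genes of the chain, its assembly, ubiquinone synthesis and ATP exchange, 4 were bound (14.8%, interval 4.19 to 33.7%). They were sco-1, a copper chaperone gene of complex IV (signal 131), hpo-18, which encodes subunit epsilon of the ATP synthase (124), ant-1.1, an ADP/ATP carrier gene (112), and nduf-6, a complex I subunit gene (99.1). The hpo-18 summit was nearest to the start of mcm-7. In replicates 1 and 2 the peaks ranked 541 and 252 for sco-1 and 397 and 3909 for hpo-18. They ranked 713 and 461 for ant-1.1 and 2088 and 85 for nduf-6. Of 20 genes of the citric acid cycle and pyruvate dehydrogenase 3 were bound (15%, 3.21 to 37.9%), namely dld-1 (177), sucl-1 (128) and idhg-1 (91.95). Of 13 mitochondrial protein import genes 1 was bound (7.69%, 0.195 to 36.03%), the receptor gene tomm-20 (105). All 3 intervals include the share of 6.46% among all genes. They also reach close to or past the share of 35.6% in the respiratory set; that difference was not tested.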

How the data were processed

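The data are ChIP-seq peak lists of 2 biological replicates. Per the deposited description files, relaxed lists were called on each replicate's ce11 alignments and on both pooled, and these 3 went into the IDR list. The labels point to a control experiment, not analysed here. No source used here names an aligner or a caller. The signal value of each peak and the −log10 q-value are as deposited. Depth is unknown. Lists in ce10 were not used.

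Genes and starts came from Ensembl release 115 (WBcel235) and product names and sequence from RefSeq. All peak ends lay within the chromosomes of that assembly. Ranks are by signal value within a list. Member and pathway lists, hexamers and comparisons were chosen with earlier results of these data known; runs of close genes the start of any transcript, and the counts by replicate on X and in runs were added after seeing the data. Every bound member and the 5 unbound members with the strongest pooled peaks were named with values; for the other members, ranks outside this rule are given as a description only, chosen after their values were seen. Counts carry exact binomial intervals and no test. The complex of each gene was read from its symbol. The assignment was tested on simulated data. Python 3.11.15, numpy 2.4.6, scipy 1.17.1, pandas 2.3.3 and matplotlib 3.10.9 were used.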

Additional observations from a re-analysis of the deposited data

How the results depend on the processing

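The count of 16 bound members, and equally the count of 16 peaks, ranged from 7 to 15 members and from 7 to 15 peaks when either replicate was left out, and both counts were 6 with the 622 strongest IDR peaks. By complex, leaving out either replicate gave 0 to 1 bound gene in complex I, 0 to 1 in complex II, 1 to 3 in complex III, 3 to 4 among complex IV subunits, 0 to 1 among assembly factors and 2 to 6 in complex V. On X, leaving out either replicate gave 1 to 4 bound genes and on autosomes 6 to 11; with those 622 peaks 1 was bound on X and 5 on autosomes. Bound at the own start or the first gene of the run were 13 to 23. With those 622 peaks 0 were bound in complexes I, II and III, 3 among complex IV subunits and 3 in complex V. With the 2488 strongest pooled peaks 2 were bound in complex II, 5 in complex III and 2 among assembly factors. With windows of 2000 bp upstream 1 cytochrome c gene and 1 assembly factor were bound, and with nearest starts only 1 gene of complex III was. ATCGAT was in 0% of member windows of 25 bp on either side of the summit, against 10.7% of all IDR windows of that size, and in 6.25% around replicate 1 summits. Within 100 bp ATCGAT was in 25% (28.9% of all IDR windows), ATTGAT in 18.8% (17.1% of all) and GAGAGA in 25% (38.9% of all). The other counts by complex stayed within 1.5 times, and the start of any transcript gave 16 members. Precision is limited by 2 replicates of unknown depth and by 2 to 9 genes per complex. No paired analysis was possible because there is 1 group.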

Other observations

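Complex I genes with names outside the set were also bound in part. Of 25 genes with symbols starting ndua-, ndub-, nduc-, nduf-, ndus- or nduv-, a list made after the data were seen, 5 were bound (20%, interval 6.83 to 40.7%), where 6.46% of all genes were. They were nduc-2 (signal 231), ndub-8 (223), ndua-8 (172), nduv-3 (146) and nduf-6 (99.1). The peak of nduc-2 is that of cox-6B, and its summit lay 828 bp upstream of nduc-2 and nearest to the start of Y71H2AM.20. The ndua-8 summit was nearest to the start of rbc-2 and the nduv-3 summit to that of mdf-2. Which gene these peaks serve was not tested. The ndub-8 peak ranked 112 in replicate 1 and 296 in replicate 2, and that of nduf-6 ranked 2088 in replicate 1 and 85 in replicate 2. Counting only the 1244 strongest peaks of a replicate, 4 of the 25 were bound in replicate 1, where 6.43% of all genes were, and 7 in replicate 2, where 5.58% were. The nduf- genes of this list, with nduf-6, were also among the 27 other genes of the chain counted above.

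The summit windows of nuo-1, atp-2 and asb-2, subunit genes of complexes I and V, shared a run of 12 bases, TCGTTGCGAGAC or its reverse complement. The run was found by comparing the member windows, so its presence there is a description. It stood in 3 of 16 member windows and in 14 of 1244 IDR summit windows (1.13%), in 0 of 2488 windows 350 bp beside the summits, and in 29 of 29314 windows 243 bp upstream of protein-coding starts (0.0989%). The 14 IDR windows include the 3 member windows in which the run was found. A run of 12 bases is rare by its length, so the 0 beside the summits decides nothing. The peaks with the run outside the set included those nearest to cbp-1 (signal 317), rpn-3 (246), lin-53 (245) and mcm-7 (124), the last of which is also the peak of hpo-18. The 3 member windows are printed in the direction of the gene (plus strand), with the shared run in capitals, from chrII:11097499-11097599 for nuo-1, chrIII:5228095-5228195 for atp-2 and chrX:4469485-4469585 for asb-2.
nuo-1: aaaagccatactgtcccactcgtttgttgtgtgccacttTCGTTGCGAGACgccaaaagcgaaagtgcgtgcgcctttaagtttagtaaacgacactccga
atp-2: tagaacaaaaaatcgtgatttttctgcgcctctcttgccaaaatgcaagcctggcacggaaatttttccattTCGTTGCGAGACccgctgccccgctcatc
asb-2: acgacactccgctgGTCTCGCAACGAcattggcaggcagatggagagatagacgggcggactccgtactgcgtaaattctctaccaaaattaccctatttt
The run reads in the same direction in the nuo-1 and atp-2 windows and in the opposite direction in the asb-2 window. Nothing was tested about what binds it.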
